A study of Drosophila melanogaster with 3 samples.

Results

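The cytosolic ribosomal protein genes encode the protein part of the ribosome, with a large subunit (proteins named RpL and the stalk proteins RpLP) and a small subunit (proteins named RpS and stubarista, sta). In flies these genes are transcribed at a high level in nearly all cells, and loss of 1 copy of many of them gives the Minute phenotype of slow growth and short, thin bristles. Their promoters carry a polypyrimidine start site, the TCT initiator, at which transcription begins inside a run of C and T. The members were taken by symbol from gene models on dm6 (release 6 of the fly genome): protein-coding genes named RpL or RpS with a digit, the RpLP genes, and sta. This gave 93 genes of 13945 protein-coding genes, 54 of the large and 39 of the small subunit, and the remaining 13852 protein-coding genes are the set they are compared with. Symbols ending in -like were kept, and whether their proteins are part of the ribosome was not checked. All 6 chromosome arms held at least 1 member.

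The data are 3 biological replicates of chromatin immunoprecipitation with sequencing (ChIP-seq) with an antibody to green fluorescent protein, in 1 group of whole wandering third-instar larvae, both sexes mixed and exact age not stated. The larvae came from 1 transgenic line that carries the RI isoform of Lola, a transcription factor with a BTB domain and zinc fingers, with eGFP at its C terminus (Lola-RI). The labels do not give the promoter or the cells that express the fusion, and whole larvae mix all tissues, so binding in a small tissue and weak binding in many cannot be told apart. The labels give lola in the antibody field and GFP in the description. There was no second condition, and the control library was not analysed here, so signal at these promoters in that control was not compared.

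The deposited peak lists hold the position of each peak, its summit (the base of highest signal) and the authors' score, which was used only to rank peaks within 1 list, rank 1 being the highest. The list of reproducible peaks, selected by irreproducible discovery rate (IDR), held 9202 peaks, and the pooled list and each replicate list held 30000. Read counts are not part of these lists, and the depth is unknown. A gene is called bound here when a summit lies within 500 bp of any of its annotated transcription start sites (TSSs), and its best-ranked summit gives its rank and its position, with negative numbers upstream. For values by replicate, each replicate list was shortened to its 9202 highest-scoring peaks.

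Annotated starts of members are shown first, because the results turn on how near the summits lie to the starts. Each line gives 91 bases of dm6 from 70 bases before the canonical TSS to 20 bases after it, read 5′ to 3′ on the strand of the gene, with the longest unbroken run of C and T between 10 bases before and 20 bases after the TSS in capitals. RpL13A, RpL34b and RpL30 were among the 5 best-ranked large subunit members, and RpS20 and RpS27 among the 5 best-ranked small subunit members. The printed start of RpL30 and RpL34b is not the annotated start nearest to the summit: their IDR summits lie at −118 and −170 bp from the printed starts, and positions given further on are to the nearest start.
RpL13A, chr3R:5624404-5624494, plus strand: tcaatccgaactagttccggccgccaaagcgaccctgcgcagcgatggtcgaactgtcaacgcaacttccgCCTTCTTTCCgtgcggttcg
RpL34b, chr3R:9401182-9401272, minus strand: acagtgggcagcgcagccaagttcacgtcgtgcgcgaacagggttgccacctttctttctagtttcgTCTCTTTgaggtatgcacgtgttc
RpL30, chr2L:19009217-19009307, minus strand: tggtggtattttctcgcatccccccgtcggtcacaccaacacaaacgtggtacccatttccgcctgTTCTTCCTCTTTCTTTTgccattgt
RpS20, chr3R:20822111-20822201, plus strand: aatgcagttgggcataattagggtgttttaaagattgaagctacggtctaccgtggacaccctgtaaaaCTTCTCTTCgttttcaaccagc
RpS27, chr3R:25247494-25247584, minus strand: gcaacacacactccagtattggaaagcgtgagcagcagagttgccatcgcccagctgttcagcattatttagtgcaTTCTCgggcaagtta

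The next 4 starts belong to members that had no IDR summit within 500 bp, and are shown because the same kind of run stood at them.
RpL10, chr3L:23095451-23095541, minus strand: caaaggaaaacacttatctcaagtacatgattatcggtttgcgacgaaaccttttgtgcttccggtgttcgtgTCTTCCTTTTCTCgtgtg
RpL21, chr2L:22247813-22247903, minus strand: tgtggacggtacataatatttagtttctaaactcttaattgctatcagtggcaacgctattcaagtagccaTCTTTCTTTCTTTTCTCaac
RpL9, chr2L:11004133-11004223, minus strand: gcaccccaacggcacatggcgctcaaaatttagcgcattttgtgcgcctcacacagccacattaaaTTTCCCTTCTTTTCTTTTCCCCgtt
RpS26, chr2L:18443208-18443298, minus strand: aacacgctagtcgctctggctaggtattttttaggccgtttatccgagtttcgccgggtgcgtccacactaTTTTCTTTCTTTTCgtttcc

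The run of C and T was a feature of bound and unbound members. Of the 93 members, 64 (68.8%) had a run of at least 7 bases in this window, against 9.38% of all 13944 protein-coding promoters scanned, and the median longest run was 10 bases in members and 4 bases in all promoters. Among the 66 members with an IDR summit 72.7% had such a run, and among the 27 without one 59.3% did. The spellings TCTTTTT or TCTTTCT, each also with C as the first letter, starting within 10 bases of the TSS on the gene's strand, were found in 30.1% of members and 0.975% of all promoters. The run was taken as a measure after the fixed spellings had been counted. Of other genes with a run of at least 7 bases, 35.5% were bound, close to the 33.6% of other genes without one.

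Lola-RI peaks stood at most ribosomal protein genes. In the IDR list 66 of the 93 members were bound (71%, 95% Wilson interval 61.1 to 79.2%), against 33.8% of the other protein-coding genes; over all protein-coding genes 34.0% were bound. In the replicate lists 65, 63 and 70 members were bound in replicates 1, 2 and 3 (69.9%, 67.7% and 75.3%, mean 71.0% ± 3.88, SD, n = 3), where 33.7%, 32.5% and 36.2% of all protein-coding genes were. The members' share lay above that of the other protein-coding genes by 36.5, 35.5 and 39.3 percentage points in the 3 replicates, a gap far wider than its SD of 2 points. An exact two-sided sign-flip permutation test over replicates gave p = 0.25, the smallest that 3 replicates allow (0.286 after Benjamini-Hochberg adjustment over the 8 differences tested here). In the full pooled list 73 members were bound (78.5%), where 48.1% of all protein-coding genes were. Intervals cover counting over genes only, and genes are not replicates.

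The replicates mostly found the same members. Summits lay within 500 bp of 60 members in all 3 shortened replicate lists, of 13 members in 1 or 2 lists, and of 20 members in none. Calls in all 3 lists were the case for 64.5% of members and 27.1% of other protein-coding genes. Calls in 1 or 2 lists were about as frequent in both, at 14% and 13.6%. Of the 66 members bound in the IDR list, 59 (89.4%) were bound in all 3 replicates, against 79.5% of the other genes bound in that list. The IDR list draws on these replicates and is no separate test. Among the 13 whose call differed between replicates were RpL14, RpL28 and RpL12 (missing from replicate 2), RpS6 (missing from replicate 1), and RpL37-1 and RpS12 (found in replicate 3 alone of the shortened lists).

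**Figure D1:**
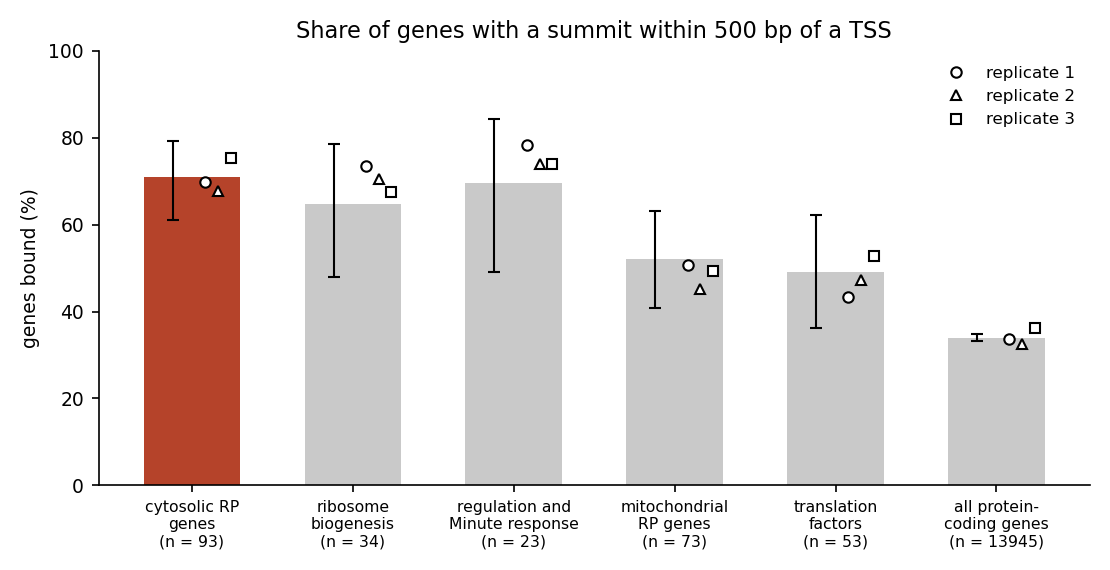
Share of genes bound, in percent, for cytosolic ribosomal protein (RP) genes, 4 other gene lists and all protein-coding genes. Bars are the IDR list with 95% Wilson intervals over genes, and circles, triangles and squares are replicates 1, 2 and 3 (shortened lists). The 3 replicate points of the ribosomal protein genes lie between 67.7% and 75.3%, and those of all protein-coding genes between 32.5% and 36.2%.

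The gap was present among genes with 1 annotated start. Members with a single annotated TSS, 48 in number, were bound in 62.5% of cases and other single-TSS genes in 26.4%. Members with several TSSs were bound in 80% and other genes with several in 54.2%. A single TSS was the case for 51.6% of members and 73.6% of other genes, so the members offered more starts per gene to be near to. Within arms, the bound share was 15 of 15 members on X, 10 of 19 on 2L, 13 of 21 on 2R, 10 of 14 on 3L, 17 of 23 on 3R and the 1 member on chromosome 4, RpS3A. Other genes on X were bound in 35.9% of cases and on 2L in 31.1%. On 2R, 3L, 3R and chromosome 4 the shares of other genes were 36.1%, 34.4%, 32.4% and 17.7%. In the replicates, 13, 14 and 15 of the 15 X members were bound, against 9, 10 and 12 of the 19 members on 2L. The difference between these arms was seen after the values were known and was not tested.

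Summits at ribosomal protein genes lay closer to the TSS than at other genes. The median position was −27 bp for the 66 bound members and −104 bp for the 4677 other bound genes. In replicates 1, 2 and 3 the members' median was −24, −8 and −31 bp, and that of other genes −114, −101 and −94 bp. The difference was 90, 93 and 63 bp (mean 82 ± 16.5 bp, SD, n = 3), the same way in all 3 replicates, and the exact sign-flip permutation test gave p = 0.25. A summit within 50 bp of a TSS was the case for 37 of the 66 members (56.1%) and 22.4% of other bound genes. By replicate these shares were 55.4%, 42.9% and 50% in members and 19.1%, 22.7% and 25.1% in other genes (exact permutation p = 0.25). Sonicated fragments were 200 to 800 bp long, per the labels, and the peak lists give no error for a single summit.

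**Figure D2:**
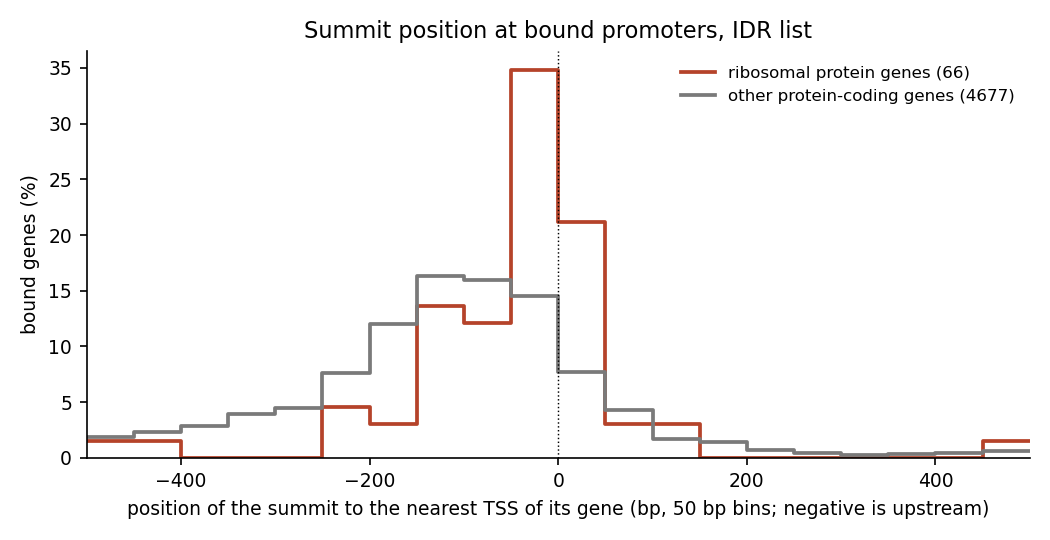
Position of the best-ranked IDR summit to the nearest TSS of its own gene, in 50 bp bins, as the percent of bound genes, for 66 ribosomal protein genes (red) and 4677 other protein-coding genes (grey). In the ribosomal protein genes 56.1% of summits lie within 50 bp of the TSS, and in other genes 22.4% do.

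The closeness held among genes with a single TSS, where the choice of nearest start plays no part. There the median was −44 bp in 30 bound members and −115 bp in 2695 other bound genes, and 43.3% of members and 19.9% of other genes had the summit within 50 bp. Best-ranked summits of the same member lay further apart between replicates than those of other genes. The best-ranked summit can be a different peak in different replicates. At RpS28a, for example, it lay at 499, 495 and −109 bp in replicates 1, 2 and 3. The range of the summit over the 3 replicates had a median of 63 bp in the 60 members bound in all 3, and of 38 bp in the 3752 other such genes. Of those members 36.7% had their summits within 50 bp of each other, and of those other genes 60.4%. The peaks of members had a median width of 382.5 bp, against 464 bp at other bound genes, which is the most common width in the pooled list, with the summit at the midpoint of many such peaks. In the IDR list 6.06% of bound members and 15.2% of other bound genes had a peak of exactly that width, and its part in the summit ranges was not tested. In addition, 75.8% of members had a single IDR summit near a TSS, against 75.9% of other bound genes.

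By rank, the members' peaks were of middling height. The median rank of the best promoter peak was 4152 of 9202 in members (quartiles 2966.2 and 5331) and 3831 in other bound genes (1794 and 6076). The middle 60% of the list held 83.3% of the bound members and 60.5% of the other bound genes. By replicate, the members' share in that middle part lay 27, 29.6 and 18.4 percentage points above that of other genes (mean 25 ± 5.81, SD, n = 3; exact permutation p = 0.25). In the highest-scoring 20% of the list stood 6 members, 9.09% of those bound, against 25.6% of other bound genes. The lowest-scoring 20% held 5 members, 7.58% of those bound, against 13.9% of other bound genes.

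**Figure D3:**
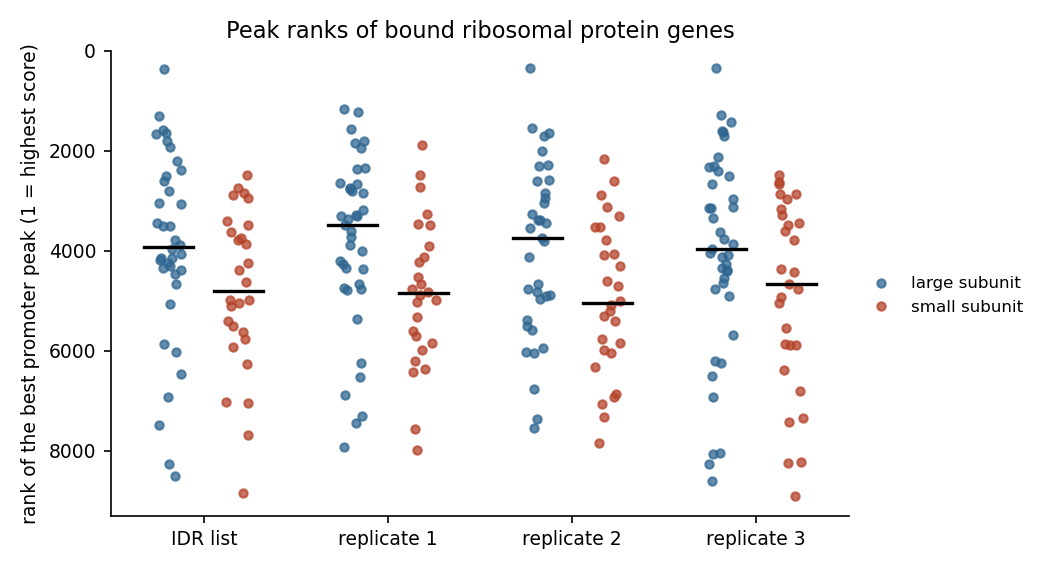
Rank of the best promoter peak of each bound ribosomal protein gene, with rank 1 (highest score) at the top, in the IDR list and in the 3 shortened replicate lists, for the large subunit (blue) and the small subunit (red); bars are medians. The large subunit medians are 3923.5, 3495, 3737 and 3973, and the small subunit medians 4802.5, 4851.5, 5044.5 and 4660.

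No difference in bound share between the large and the small subunit held over the replicates. In the IDR list 38 of 54 large subunit genes (70.4%, Wilson interval 57.2 to 80.9%) and 28 of 39 small subunit genes (71.8%, 56.2 to 83.5%) were bound. Over replicates the difference, large minus small, was 5.56, −6.98 and 1.57 percentage points (mean 0.0475 ± 6.4, SD, n = 3; exact permutation p = 1), so its direction varied between replicates. This does not show that the shares are alike.

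Over all bound members, large and small subunit peaks differed in rank and position. Large subunit peaks had a median rank of 3923.5 and small subunit peaks of 4802.5. The difference in median rank was −1360, −1310 and −687 in the 3 replicates, with large subunit peaks ranked higher in each (exact permutation p = 0.25). All 6 members in the highest-scoring 20% were of the large subunit, and no small subunit gene was in that part in any of the 3 replicate lists. Large subunit summits lay at a median of −53.5 bp with 33 of 38 (86.8%) upstream of the TSS, and small subunit summits at −4.5 bp with 14 of 28 (50%) upstream. By replicate the medians were −40, −38 and −59 bp in the large and −4.5, 5.5 and 2 bp in the small subunit, a difference of −46.7 ± 13 bp (SD, n = 3; exact permutation p = 0.25). Where no other gene's TSS was near, the medians were −22.5 bp in 14 large subunit genes and 0.5 bp in 14 small subunit genes. Median ranks there were 4860 and 4986, closer together than over all bound members. The summit was shared with another gene in 63.2% of bound large and 50% of bound small subunit genes. The part of such sharing in the rank difference was not tested.

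**Figure D4:**
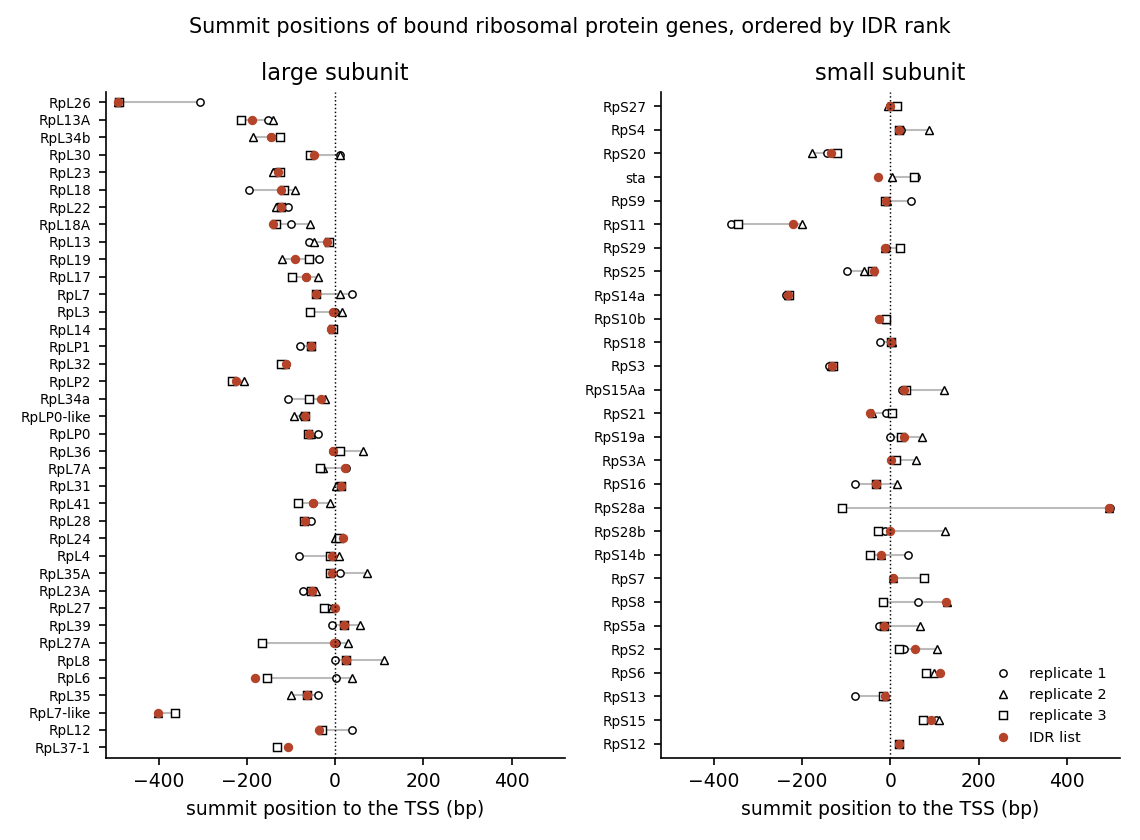
Summit position to the nearest own TSS, in bp, for each bound large subunit gene (left) and small subunit gene (right), ordered by IDR rank from the top; red points are the IDR list and open circles, triangles and squares are replicates 1, 2 and 3 (shortened lists), joined by grey lines. In the IDR list 33 of 38 large subunit summits lie upstream of the TSS, and 14 of 28 small subunit summits do.

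The highest-ranked member was RpL26 (FBgn0036825, 3L 18898875 to 18900408), a large subunit protein. It ranked 2366, 340 and 339 in replicates 1, 2 and 3 and 369 in the IDR list. The replicate ranks are not all of the same summit, since the best one lay at −307, −492 and −491 bp in replicates 1, 2 and 3. Its best IDR summit lay at −492 bp and 90 bp from the TSS of the divergent gene CG3902, while the IDR summit nearest to RpL26 lay at −287 bp with rank 1611. This peak stood closer to the start of the neighbour than to that of RpL26.

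The next large subunit genes were RpL13A, RpL34b, RpL30 and RpL23. RpL13A (FBgn0037351, 3R 5624474 to 5625947) ranked 1162, 1713 and 1277 in the replicates and 1303 in the IDR list, with its summit at −188 bp. RpL34b (FBgn0037686, 3R 9400237 to 9401226) ranked 1217, 1648 and 2335 in the replicates and 1593 in the IDR list, at −146 bp. Both summits were slightly nearer to the divergent neighbour's start, that of Dph4 and Spec2 for RpL13A and of CG8132 for RpL34b. RpL30 (FBgn0086710, 2L 19008031 to 19009306) ranked 1944, 1547 and 1596 in the replicates and 1636 in the IDR list, at −49 bp. RpL23 (FBgn0010078, 2R 22854383 to 22855694) ranked 1807, 2600 and 1420 in the replicates and 1669 in the IDR list, with summits at −136, −140 and −126 bp.

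Among small subunit genes RpS27, RpS4, RpS20, sta and RpS9 ranked highest. RpS27 (FBgn0039300, 3R 25245955 to 25247514) ranked 1879, 3789 and 2494 in replicates 1, 2 and 3 and 2481 in the IDR list, where its summit fell exactly on the annotated TSS. The replicate summits of RpS27 lay at 0, −6 and 16 bp, so all 3 lay within 16 bp of the start. RpS4 (FBgn0011284, 3L 13041756 to 13044234) ranked 2717, 2880 and 2861 in the replicates, with its IDR summit at 20 bp. RpS20 (FBgn0019936, 3R 20822181 to 20823356) ranked 2485, 3119 and 3157, with its IDR summit at −134 bp. The gene sta (FBgn0003517, X 1481797 to 1483413), named for shortened bristles and aristae in mutants, ranked 3467, 2605 and 2631, with its IDR summit at −28 bp. RpS9 (FBgn0010408, 3L 9509793 to 9511531) ranked 4524, 2163 and 2969, with its IDR summit at −9 bp. Each of these 5 ranked below the 5 leading large subunit genes in the IDR list.

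Many of these promoters are shared with a neighbour. Of the 66 bound members, 38 (57.6%) had a summit that also lay within 500 bp of the TSS of another gene, against 49.8% of other bound genes. Over replicates the members' share was higher by 7.75, 5.2 and 7.21 percentage points (mean 6.72 ± 1.34, SD, n = 3; exact permutation p = 0.25). A protein-coding neighbour was near in 33 cases (50%), close to the 46.6% of other bound genes. A divergent one was near in 32 of these cases, and in 2007 of the 4677 other bound genes. In 5 cases the neighbours were non-coding only. Of the other bound genes, 2327 had any neighbour near and 2181 a protein-coding one. Within reach of the summit, 6 members had a small nucleolar RNA gene (RpL14, RpL17, RpL28, RpS6, RpS12 and RpS29). Such RNAs guide rRNA modification and are often hosted in introns of ribosomal protein genes. How many other bound genes had one near was not counted. No summit was shared by 2 ribosomal protein genes.

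In 10 of the 66 the neighbour's TSS was nearer to the summit than the member's own. The other 56 members, 60.2% of all 93, had their own TSS nearest, a count added after the data were seen. Of bound genes, that was 84.8% of members and 76.4% of other genes. Members with an unshared summit were the closer to their TSS. The 28 members with no other TSS within 500 bp had a median position of −5.5 bp and a summit within 50 bp in 67.9% of cases, against −77 bp and 27.1% in other genes with no other TSS near. The 38 members with a shared summit had a median of −44.5 bp and 47.4% within 50 bp, against 17.6% of other shared genes. Shared members also ranked higher, with a median of 3564 against 4986 for members that shared no summit. Ranks of other bound genes with and without a shared summit were not compared.

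Among the neighbours, Dref stands on the regulation and Minute response list described further on. RpL13 shared its summit with Dref, which encodes the factor that binds the DNA replication-related element (DRE). The starts of the pair lie 84 bp apart, and the summit, at rank 2390, was 19 bp from that of RpL13 and 65 bp from that of Dref. RpL28 shared its summit with eIF1, a translation initiation factor gene, at 69 bp from its own start and 312 bp from that of eIF1. From the summit alone, the gene of such a pair to which binding belongs cannot be told apart.

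No IDR summit lay within 500 bp of 27 members. They included the large subunit genes RpL5, RpL9, RpL10, RpL10Aa, RpL10Ab, RpL11, RpL15, RpL21, RpL22-like, RpL24-like, RpL29, RpL36A, RpL37-2, RpL37A, RpL38 and RpL40, and the small subunit genes RpS5b, RpS10a, RpS15Ab, RpS19b, RpS23, RpS24, RpS26, RpS27A, RpS28-like and RpS30. Of the 27, 7 had a summit in the pooled list below the part that passed IDR, 10 had one in at least 1 full replicate list, and 17 had none in any list. Such lower summits were not particular to members. From the IDR to the full pooled list the bound share went from 34.0% to 48.1% over all protein-coding genes, and from 71% to 78.5% in members. How many other genes without an IDR summit had a summit in the replicate lists, or none within 5000 bp, was not counted. The 7 with a pooled summit included RpL10Ab at rank 9204, just below the last IDR peak, RpS24 at 9569, RpS23 at 11185, RpS15Ab at 12094, RpS5b at 12197 and RpL40 at 13119, with RpL11 as the last. For 9 members no list placed a summit even within 5000 bp.

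**Figure D5:**
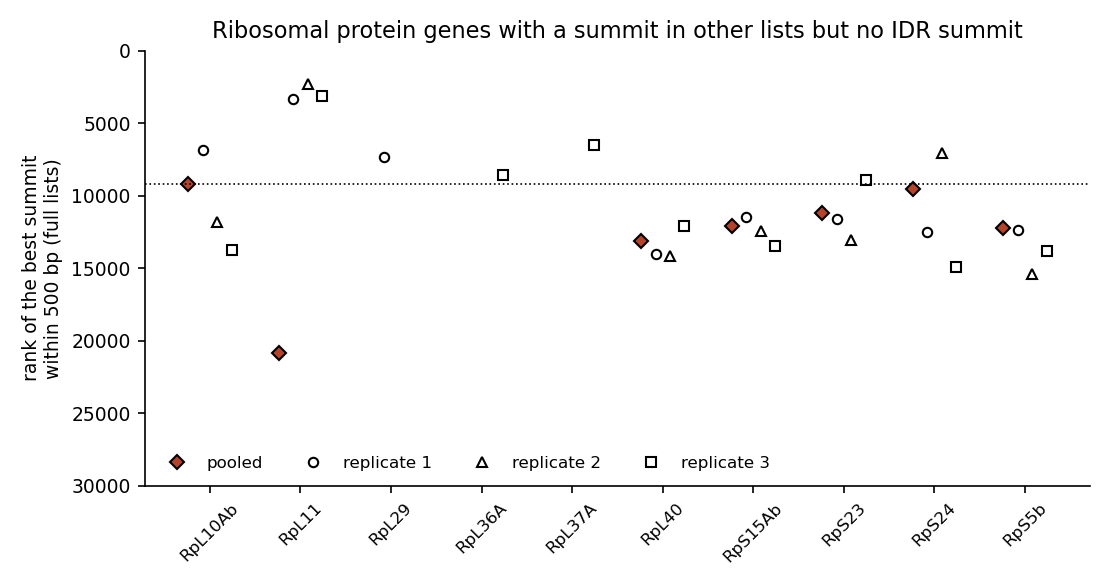
Rank of the best summit within 500 bp of a TSS, in the full pooled list (red diamonds) and the full replicate lists (circle, triangle and square for replicates 1, 2 and 3), for the 10 of the 27 ribosomal protein genes without an IDR summit that had a summit in at least 1 list; rank 1 would be at the top and the dotted line is the length of the IDR list, 9202. RpL11 stands above the line in all 3 replicates.

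RpL11, whose protein joins the large subunit with 5S rRNA, was bound in every replicate and not in the IDR list. It ranked 3302, 2304 and 3138 in replicates 1, 2 and 3, with summits at −12, 12 and −20 bp. The pooled list had only a summit at 212 bp with rank 20827, below the IDR part. It was the 1 member in all 3 replicate lists that the IDR list left out, and the source of the difference between the pooled and the replicate calls was not tested. RpL10Ab, RpL29, RpL36A, RpL37A, RpS23 and RpS24 each had a summit in 1 shortened replicate list only.

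A group of unbound members stood in stretches with few peaks of any kind. RpL5 (2L 22532279 to 22536884), RpL10 (3L 23093190 to 23095471), RpL15 (3L 27267255 to 27268445) and RpL21 (2L 22247111 to 22247875) had no pooled summit within 50 kb of their starts, and RpL38 (2R 4515388 to 4516458) had 1. No bound member had fewer than 2, and the medians were 21 pooled summits in unbound and 32.5 in bound members. RpL5, RpL15 and RpL38 are known in the fly as genes of pericentric heterochromatin. How well short reads can be placed in these stretches was not tested, since the peak lists do not hold that value. The runs of C and T at RpL10 and RpL21, shown above, were 13 and 17 bases long.

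The 500 bp limit bore on few members. Just inside it, by the summit nearest to the TSS, were RpL26 at −287 bp, RpL7-like at −402 bp and RpS28a at 495 bp. Just outside were, among others, RpS10a at −636 bp and RpS19b at −878 bp.

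Members paired by like symbols offer a comparison within pairs. Coding identity within pairs ran from 45.9% for RpLP0 and RpLP0-like to 98.2% for RpS15Aa and RpS15Ab. It was 49.3% for RpL24 and RpL24-like and 54.5% for RpL7 and RpL7-like. Copy here means a gene of such a pair, and whether both encode the same ribosomal protein was not checked. Of the 14 pairs examined, 8 had 1 copy bound in the IDR list: RpL22, RpL24, RpL37-1, RpS5a, RpS10b, RpS15Aa, RpS19a and RpS28b were bound, while RpL22-like, RpL24-like, RpL37-2, RpS5b, RpS10a, RpS15Ab, RpS19b and RpS28-like were not. Both copies were bound for RpL7, RpL34, RpLP0, RpS14 and RpS28, taking RpS28a with RpS28b, and neither copy for RpL10A. In each pair with both bound, the best summit of 1 copy lay nearer to a neighbour's start. RpL7-like lay 402 bp from it and JhI-21 25 bp, RpS28a 495 and Mgat2 68 bp, and RpLP0-like 68 and 14-3-3zeta 19 bp. RpS14a lay 231 bp from it and Dhdds 160 bp, and RpL34b 146 and CG8132 123 bp. RpS14a also had a lower-ranked IDR summit at −14 bp. RpL22 lay 123 bp from its best summit and a non-coding RNA gene 35 bp. Several of the unbound copies, such as RpL22-like, RpS5b, RpS10a and RpS19b, are known in the fly for expression in the germ line. In these 8 pairs the bound copies other than RpL37-1 were bound in all 3 replicates, and none of the 8 unbound copies was bound in any shortened replicate list. The pair of RpL37 genes was added after the values were seen.

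Starts of 2 such pairs are set side by side because bound and unbound copies differed in the run of C and T; capitals mark the longest run as above.
RpS10b (bound), chrX:19597970-19598060, plus strand: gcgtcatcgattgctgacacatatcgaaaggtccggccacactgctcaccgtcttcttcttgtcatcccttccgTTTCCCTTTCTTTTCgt
RpS10a (not bound), chr3R:27652690-27652780, plus strand: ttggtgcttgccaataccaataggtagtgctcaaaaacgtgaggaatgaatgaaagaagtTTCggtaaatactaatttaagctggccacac
RpS19a (bound), chrX:16637824-16637914, plus strand: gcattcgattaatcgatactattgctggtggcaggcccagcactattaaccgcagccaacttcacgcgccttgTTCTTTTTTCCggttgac
RpS19b (not bound), chr3R:23933510-23933600, minus strand: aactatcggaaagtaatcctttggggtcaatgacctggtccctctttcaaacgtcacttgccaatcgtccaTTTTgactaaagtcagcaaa

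The run was 15 bases in RpS10b and 3 in RpS10a, and 11 bases in RpS19a and 4 in RpS19b. It was 23 bases in RpS15Aa and 5 in RpS15Ab, whose coding sequences are 98.2% identical, and 12 bases in RpL22 and 6 in RpL22-like. The order was not the same in every pair, since RpS5a had 9 bases and the unbound RpS5b 11. RpS14a and RpS14b, with 97.8% identical coding sequences, stand side by side on X and were both bound, at ranks 3742 and 5497. The sources used here do not state how reads that match both copies of such near-identical genes were treated, so the calls at RpS15Aa, RpS15Ab, RpS14a and RpS14b are uncertain.

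Other motifs were counted on both strands from 250 bases before to 50 bases after the canonical TSS. The DRE core TATCGATA, the site of Dref, was found in 30.1% of members and 8.94% of all promoters. The core of motif 1, GGTCACAC, the site of M1BP, was found in 15.1% of members and 7.54% of all promoters. GAGAG was rarer in members (17.2%) than in all promoters (30.2%), and TATAAA was as frequent (45.2% and 45.3%). The E-box CACGTG, the site of Myc with Max, was found in 11 of the 54 large subunit promoters and in none of the 39 small subunit promoters, against 4.26% of all promoters. Members with a DRE were bound in 78.6% of cases and members without in 67.7%, and other genes with a DRE in 44% and without in 32.8%. For the motif 1 core, these shares were 71.4% and 70.9% in members and 50.9% and 32.4% in other genes. For TATAAA they were 61.9% and 78.4% in members and 31.2% and 35.9% in other genes. For GAGAG they were 75% and 70.1%, and 39.1% and 31.5%. For the E-box they were 72.7% and 70.7%, and 36% and 33.7%. These are letters in a window, not measured sites of any factor, and none of these spellings contains another.

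Within 50 bp of the best summit, a DRE core stood at 7 of the 66 member summits (10.6%) and at 3.08% of the 3634 distinct summits of other genes. The E-box stood at 4 member summits (6.06%) and at 0.853% of other summits, and the motif 1 core at 6.06% and 2.94%. GAGAG stood at 7.58% of member summits and at 16.2% of other summits, and TATAAA at 12.1% and 17.6%.

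Other genes of ribosome production were bound at differing rates. Genes of ribosome biogenesis, which process rRNA and assemble subunits, were bound in 22 of 34 cases (64.7%), led by Ns2 at rank 1004, eIF6 at 1695 and Non3 at 2199. Mitochondrial ribosomal protein genes were bound in 38 of 73 cases (52.1%) and translation factor genes in 26 of 53 (49.1%), led by eIF4G2 at rank 94, eEF1alpha1 at 170 and eIF4EHP at 360. Over replicates the means were 71.0% ± 3.88 in cytosolic ribosomal protein genes, 70.6% ± 2.94 in ribosome biogenesis, 48.4% ± 2.85 in mitochondrial ribosomal protein genes and 47.8% ± 4.75 in translation factor genes (SD, n = 3). In the IDR list a summit within 50 bp of the TSS was the case for 56.1% of bound cytosolic ribosomal protein genes, 13.6% of ribosome biogenesis genes, 10.5% of mitochondrial ribosomal protein genes and 23.1% of translation factor genes.

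By replicate, translation factor genes lay nearer to the cytosolic ribosomal protein genes in position than the other lists did. In replicates 1, 2 and 3 the share within 50 bp was 55.4%, 42.9% and 50% in cytosolic ribosomal protein genes and 43.5%, 40% and 35.7% in translation factor genes. The median position was −24, −8 and −31 bp in cytosolic ribosomal protein genes and −27, −8 and −48.5 bp in translation factor genes, so the medians of these lists were nearly alike in replicates 1 and 2, whereas the IDR list put translation factor genes at −68.5 bp. The shares within 50 bp were 8%, 16.7% and 13% in ribosome biogenesis genes and 5.41%, 12.1% and 8.33% in mitochondrial ribosomal protein genes, below those of cytosolic ribosomal protein genes in each replicate.

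A list of 23 genes, drawn up under the heading of ribosomal protein gene regulation and Minute response, was counted as well. A place on this list does not mean that a gene is known to act on ribosomal protein genes. Of these 23, 16 (69.6%) were bound in the IDR list, and the mean over replicates was 75.4% ± 2.51 (SD, n = 3). REPTOR, a transcription factor that acts when TORC1 is low, had the highest peak, at ranks 16, 19 and 26 in replicates 1, 2 and 3. Xrp1, which encodes a bZIP factor induced in Minute cells, ranked 200, 180 and 222, and its partner Irbp18 ranked 1739, 1962 and 2995. Ilp8, the insulin-like signal of damaged discs, ranked 606, 629 and 462.

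The summits of Xrp1 and Ilp8 lay at −31 and −37 bp in the IDR list, and those of REPTOR and Irbp18 at −167 and −215 bp. The IDR list also had summits at larp (rank 743), M1BP (1717), Dref (2390), Myc (2562), Hmg-2 (2763), row (2777), CrebA (3406), Thor (5153), Mnt (5276), foxo (5434), S6k (5584) and Larp4B (8657). Maf1, Max, REPTOR-BP, Tif-IA, Trf2, raptor and wds had no IDR summit within 500 bp. Of these 7, Max and Trf2 had one in 2 of the shortened replicate lists and raptor in 1. The lists are short, and their shares are given as counts without a test.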

How the data were processed

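Peak lists of 3 replicates, of the pooled replicates and of reproducible (IDR) peaks were used. The authors called the peaks, with coordinates on dm6 per the labels; the sources used here do not state the aligner, the peak caller or the IDR threshold. Each peak's score, as the authors deposited it, gave its rank within its own list and nothing else. The deposited −log10 q values were the same for all 9202 IDR peaks and gave no ranks. The IDR list equals the 9202 highest-scoring pooled peaks. Many peaks had a common width with the summit at its midpoint, which is coarser than a called summit.

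Gene models came from Ensembl release 115 without transposable elements on X, 2L, 2R, 3L, 3R and 4, and sequences from the RefSeq release 6 assembly. A gene was bound when a summit lay within 500 bp of any TSS. Position and rank are those of its best-ranked summit. Replicate lists were shortened to 9202 peaks, and differences were tested by an exact two-sided sign-flip permutation test over the 3 replicates, which cannot go below p = 0.25, with Benjamini-Hochberg adjustment over 8 differences. Nothing in the labels says whether the replicates came from separate cultures of larvae, so p-values speak only for these samples. The test gives 0.25 whenever all 3 differences share a sign, whatever their spread. Positions were checked on simulated summits. Paralogues were compared by coding sequence. Of listed symbols, 4 were matched through a synonym and 5 were unmatched.

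The members, gene lists and measures were chosen with earlier results of these data known. Genes named are the 5 best-ranked of each subunit, every unbound member, those at the 500 bp limit, up to 6 whose calls differ between replicates, paralogue pairs with differing calls, and of other lists up to 3 each and the whole regulation list; others named were chosen after their values were seen. A result that this rule would name is not reported here. Alternatives varied the promoter width, the TSSs, the peak list, the score, the overlap rule and the replicates. Python 3.11.15, pandas 2.3.3, numpy 2.4.6, scipy 1.17.1, Biopython 1.88 and matplotlib 3.10.9 were used.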

Additional observations from a re-analysis of the deposited data

How the results depend on the processing

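The bound share of 71% became 78.5% with the full pooled list (all protein-coding genes 48.1%). It became 45.2% with the 4601 highest-scoring IDR peaks (2787 of 13945 protein-coding genes). Where the gene's own TSS had to be nearest it was 60.2% (3573 of the 13852 other protein-coding genes). With each replicate left out it ran from 64.5% to 67.7%, where both remaining lists had to hold a summit. That rule was not counted over all protein-coding genes. The members' share moved by less than 1 replicate SD with other promoter widths, the 5′-most TSS, an overlap rule or -like genes left out. Over all protein-coding genes 29.6% were bound within 250 bp, 37.9% within 1000 bp and 31.6% at the 5′-most TSS. The mean replicate share became 79.6% with full lists (all protein-coding genes 47.7% to 51.2% by replicate) and 75.6% within 1000 bp (36.3% to 40.1%), and ran from 68.8% to 72.6% with each replicate left out. The large minus small difference of −1.42 points changed sign to 20.4 in those 4601 peaks and to 1.85 with the overlap rule, was −9.12 within 1000 bp, and ran from −4.42 to 1.85 with each replicate left out. The median position became −9 bp with the 5′-most TSS only and −49.5 bp in the 4601 peaks, and ran from −24 to −11.5 bp with each replicate left out. The median rank became 3461 in the 4601 peaks, which by construction holds only the best ranks. The shared summit share became 41.3% within 250 bp, 81.2% within 1000 bp, 54.8% with the pooled list and 71.4% in the 4601 peaks, and ran from 55% to 56.3% with each replicate left out. The 4601 peaks are part of the IDR list, and that list is part of the pooled list. The bound share therefore could not rise with the first or fall with the pooled list. A reach of 250 or 1000 bp also changes how many other starts can count as shared. Beyond these points and that on the median rank, the causes were not tested. No paired analysis was possible because the series has 1 group. Depth is unknown, so how depth limits the calls was not tested.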
